A study of Mus musculus with 9 samples.

Results

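The insulin-like growth factor (IGF) system was followed in MLO-Y4 cells, an osteocyte-like mouse cell line, through 10 genes chosen by name: the ligands Igf1 and Igf2, the receptors Igf1r and Igf2r, and the binding proteins Igfbp2, Igfbp3, Igfbp4, Igfbp5, Igfbp6 and Igfbp7. They are 10 of the 56748 genes in the count table. Of these, 6 passed the filter on low counts and were tested, and 4 (Igf1, Igf2, Igfbp2 and Igfbp3) had too few reads. The main differences lay among the binding proteins. Igfbp4 and Igfbp5 were highest at 48 h, Igfbp7 was highest at 24 h, and Igfbp6 was lowest at 24 h, while no call was made for either receptor.

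IGF1 and IGF2 are small secreted hormones that resemble insulin. They signal through the receptor tyrosine kinase IGF1R, whereas IGF2R, the mannose 6-phosphate receptor, carries IGF2 and lysosomal enzymes to lysosomes. In the extracellular fluid most IGF is held by binding proteins, which prolong its life and limit its access to the receptor until proteases release it. In bone, IGF1 is a growth factor of osteoblasts and osteocytes and is stored in the matrix, where IGFBP5 is abundant.

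RNA was measured by sequencing of 9 libraries from MLO-Y4 cells that shared a transwell with primary articular chondrocytes of C57BL/6J mouse pups under a week old. In the control group (n = 3) the chondrocytes were not stimulated. In the 24 h and 48 h groups (n = 3 each) the chondrocytes had received 10 ng/mL interleukin-1β (IL-1β) for 6 h before MLO-Y4 cells were cultured with them for 24 h or 48 h. The culture time of the control group is not given in the labels, so that stimulation and time cannot be told apart in a comparison with control. All groups shared the immortalized line and the chondrocytes on the other side of the membrane. The labels of the 48 h samples name the line MLO-Y5, MLO-Y6 and MLO-Y7, although the culture protocol names MLO-Y4 for every sample. The labels do not say that replicates were separate cultures, and p-values then measure the spread between these samples, which may be technical. In bulk RNA, fewer cells expressing a gene and less RNA per cell cannot be told apart.

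Libraries held 12250628 to 18515456 counts. The osteocyte label was met in part: Mepe and Fgf23 had no read in any library, Sost had at most 1 count and Dmp1 at most 6 counts per library, whereas Phex averaged 14.6, 12.3 and 19.8 CPM (counts relative to the scaled library total) in control, 24 h and 48 h. The summed level of 14 osteocyte and osteoblast markers was 3340 to 3541 CPM in control, 3452 to 3500 at 24 h and 4140 to 4221 at 48 h. The higher sum at 48 h was that of Gja1, the gap junction gene connexin 43, which averaged 1498, 1637 and 2413 CPM. Of the other markers in the list, Cd44, Bglap, Alpl, Col1a1 and Sp7 were called lower at 48 h than in control (log2 fold changes of -0.57, -0.59, -0.38, -0.14 and -1.07). Tnfsf11, Phex and Pdpn were called higher (2.04, 0.43 and 0.15), and Runx2 was not called. The summed level of 14 chondrocyte markers was 1684 to 1717, 1567 to 1651 and 2129 to 2219 CPM, most of it Prg4, which encodes lubricin. Sox9, also in this list, averaged 112, 104 and 124 CPM in control, 24 h and 48 h. The cartilage genes Acan, Matn1, Col9a1 and Ucma had no read in any library and Col2a1 had at most 7 counts. Hapln1, Col9a3 and Chad had at most 8, 11 and 17 counts per library. Matn3 averaged 4.02, 2.63 and 1.655 CPM and was called lower at 48 h than in control (log2 fold change of -1.25). Comp (0.320, 0.203 and 0.873 CPM), Sox9 and Prg4 were called higher (1.445, 0.14 and 0.38). Col11a2 and Col10a1, at 1.10 to 1.57 CPM on average, were not called. Leukocyte markers summed to 1.80 to 4.17 CPM and endothelial markers to at most 0.521 CPM over all libraries. Both of the larger sums, through Gja1 and Prg4, were highest at 48 h, the group in which Igfbp4 and Igfbp5 were highest, and their part in those results was not tested.

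The promoter windows of the 4 binding-protein genes that differed among the groups are printed here, since these are the members whose RNA moved. They are the 250 bases before the transcription start from RefSeq (GRCm38.p6), whose table held a window for all 10 members. The Igfbp4 window is chr11:99040994-99041243 on the plus strand, that of Igfbp5 is chr1:72874866-72875115 on the minus strand, that of Igfbp6 is chr15:102143936-102144185 on the plus strand and that of Igfbp7 is chr5:77408046-77408295 on the minus strand. Capitals mark the letters of a searched motif on either strand.
Igfbp4: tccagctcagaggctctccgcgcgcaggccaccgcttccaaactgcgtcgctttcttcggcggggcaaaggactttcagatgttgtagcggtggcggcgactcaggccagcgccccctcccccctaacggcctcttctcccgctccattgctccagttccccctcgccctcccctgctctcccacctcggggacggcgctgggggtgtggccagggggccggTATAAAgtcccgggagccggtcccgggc
Igfbp5: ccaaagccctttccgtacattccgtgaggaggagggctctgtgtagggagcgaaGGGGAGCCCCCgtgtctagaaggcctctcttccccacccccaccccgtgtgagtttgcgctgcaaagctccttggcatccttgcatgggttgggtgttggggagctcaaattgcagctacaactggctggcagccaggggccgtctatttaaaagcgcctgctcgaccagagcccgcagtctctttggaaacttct
Igfbp6: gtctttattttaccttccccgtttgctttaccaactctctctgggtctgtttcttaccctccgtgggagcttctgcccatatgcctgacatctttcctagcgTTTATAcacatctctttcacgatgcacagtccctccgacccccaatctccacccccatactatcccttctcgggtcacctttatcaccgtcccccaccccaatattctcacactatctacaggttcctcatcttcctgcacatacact
Igfbp7: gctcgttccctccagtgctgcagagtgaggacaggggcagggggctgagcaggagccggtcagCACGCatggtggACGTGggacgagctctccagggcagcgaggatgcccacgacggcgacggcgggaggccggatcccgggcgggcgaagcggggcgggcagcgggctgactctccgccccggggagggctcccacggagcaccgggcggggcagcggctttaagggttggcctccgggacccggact

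Searched on both strands were the TATA box (TATAAA), the NF-kB site, the core of the hypoxia-response element (ACGTG or GCGTG), the AP-1 core (TGANTCA) and the C/EBP core (TTGCNNAA). Igfbp4 held a TATA box whose first base lay 28 bases before the start, and Igfbp6 held one on the reverse strand, 148 bases before it. A TATA box of these letters stood in 12.4% of all 32851 windows. Igfbp5 held an NF-kB site in 2 overlapping registers, at 196 and 195 bases before the start, and 7.25% of all windows held a match. Igfbp7 held hypoxia-response cores at 187 and 175 bases, a motif found in 38.6% of windows. No AP-1 core (6.75% of windows) or C/EBP core (9.56%) was in these 4 windows. GC content was 69.2% in Igfbp4, 58.8% in Igfbp5, 49.6% in Igfbp6 and 74% in Igfbp7, so the 4 windows shared no searched motif beyond the TATA box letters of Igfbp4 and Igfbp6. A match is a description of letters only.

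Ligand RNA was at or near the limit of detection. Igf1 (chr10:87694127-87772904, GRCm39, plus strand) had counts of 0, 1 and 0 in control, 1, 0 and 0 at 24 h, and 2, 0 and 4 at 48 h. Igf2 (chr7:142204503-142220553, minus strand) had no read in any of the 9 libraries, which hold 138939746 counts together. On the same strand, the gene Gm49394 shares 3599 of the 6162 exon bases of Igf2 in the GENCODE annotation of this build and also had no read. Reads that match both genes may not have been counted for either, depending on the setting. The 0 can therefore bound the level of Igf2 RNA only through its other exon bases, and no limit was computed for these. For a gene whose reads are all counted, no read in the 9 libraries would allow a level of up to 0.0216 CPM. In a single library a count of 3, the limit that a count of 0 allows, is 0.160 to 0.245 CPM. These limits cover counting error only. Only 1 library, 48 h replicate 3, had more than 3 Igf1 reads, and no difference between groups was detectable at this depth.

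Both receptors were clearly expressed. Igf1r (chr7:67602575-67883416, plus strand), the signalling receptor, was at 61.15, 61.16 and 77.94 CPM in control, 77.43, 76.17 and 75.92 CPM at 24 h, and 70.10, 70.18 and 79.75 CPM at 48 h. The third control library stood among the treated libraries and the groups overlapped. Against control, the log2 fold change of Igf1r was 0.20 (SE 0.082, 95% interval 0.026 to 0.37) at 24 h and 0.14 (SE 0.081, interval -0.033 to 0.309) at 48 h, with edgeR quasi-likelihood Benjamini-Hochberg adjusted p of 0.189 and 0.179. Without control replicate 3 the values were 0.33 (adjusted p = 0.00274) and 0.28 (adjusted p = 0.00194), so whether Igf1r was called depended on that library. The 48 h value was 0.086 (adjusted p = 0.475) without control replicate 1 and 0.076 (0.524) without 48 h replicate 3. At 24 h Igf1r also passed with no filter on low counts (0.21, adjusted p = 0.0389).

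Igf2r (chr17:12901293-12988551, minus strand) was at 229.3, 222.5 and 266.0 CPM in control, 247.9, 230.1 and 245.2 CPM at 24 h, and 232.8, 229.8 and 243.8 CPM at 48 h. The groups overlapped throughout. Its log2 fold change was 0.01 (SE 0.061) at 24 h and -0.02 (SE 0.061, 95% interval -0.151 to 0.105) at 48 h, with edgeR quasi-likelihood adjusted p of 0.9545 and 0.7852. Igf2r overlaps the antisense transcript Airn, which had 18 to 62 counts per library against at least 2721 for Igf2r. Per length, in CPM per kilobase of gene (FPKM), Igf2r exceeded Igf1r 6.50 ± 0.310 times in control, 5.68 ± 0.206 times at 24 h and 5.80 ± 0.255 times at 48 h (SD, n = 3).

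Among the binding proteins, Igfbp2 had 2, 0 and 0 counts in control, 0, 0 and 2 at 24 h, and 0, 2 and 0 at 48 h. Igfbp3, the main carrier of circulating IGF, had 1 read in all 9 libraries, in 48 h replicate 1. Igfbp1, an insulin-regulated binding protein of the liver that is no member, had none. The binding-protein RNA of these cells was thus that of Igfbp4, Igfbp5, Igfbp6 and Igfbp7. In the joint test of the 3 groups these 4 of the 6 tested members were called, against 51.9% of all 13812 genes tested, so the share called is not far from that of the table.

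At 48 h, 3 of the 6 tested members were higher than in control, where 22% of all genes tested were called higher, and none was lower, where 24.4% were called lower. By an unadjusted p under 0.05 the count lower was also 0 in edgeR, and DESeq2 called none. At 24 h, 1 member was higher (3.25% of all genes) and 1 was lower (2.9%). From 24 h to 48 h, 3 were higher (23.7%) and 1 was lower (25.4%). The median log2 fold change of the 6 members was 0.14 at 48 h, 0.07 at 24 h and 0.13 between them, and the median over all genes was -0.002, -0.004 and -0.002. The 24 h and 48 h comparisons share the control libraries. Libraries of the groups compared did not overlap for 53.1% of all genes tested at 48 h against control. The share was 21.5% at 24 h against control and 59.4% from 24 h to 48 h. The separations of single genes given below stand beside these shares.

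**Figure D1:**
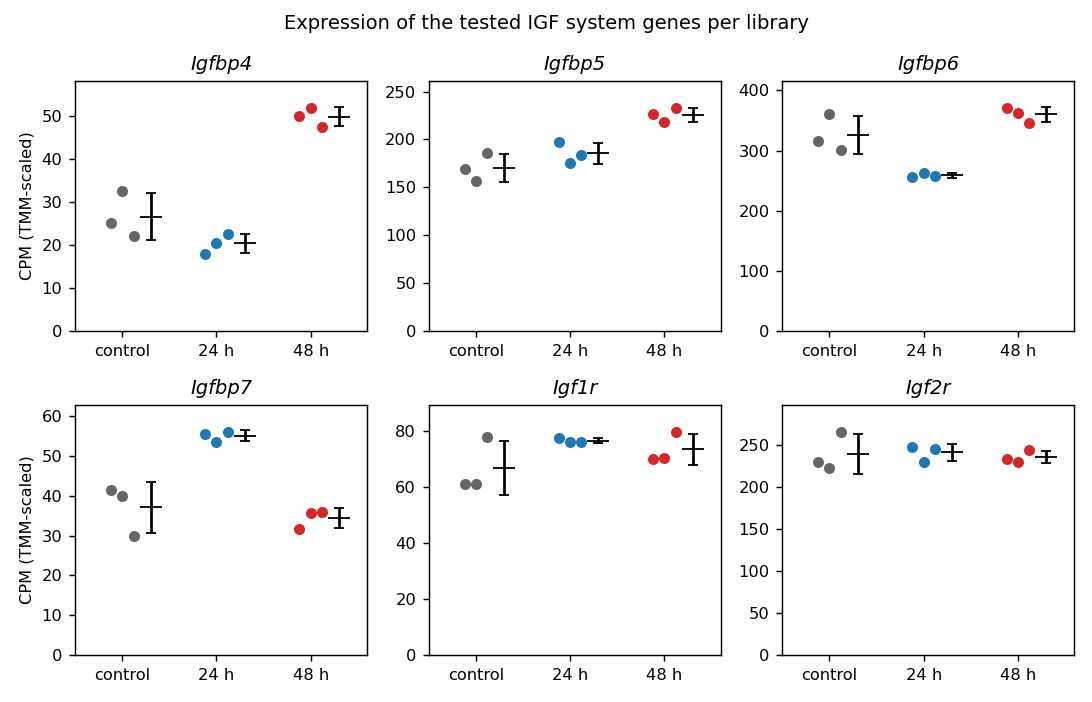
CPM of the 6 tested genes in each library, with a panel per gene and the groups control, 24 h and 48 h on the horizontal axis; points are libraries, the long bar is the mean and the whiskers are the SD (n = 3). Igfbp4 lies between 47.51 and 51.90 CPM at 48 h, above every other library, and Igfbp7 lies between 53.51 and 56.16 CPM at 24 h, above every other library.

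Igfbp4 (chr11:98932070-98945218, plus strand), a binding protein that PAPP-A cleaves to free IGF, rose the most. It was at 25.05, 32.62 and 22.04 CPM in control, 18.02, 20.57 and 22.58 CPM at 24 h, and 50.05, 51.90 and 47.51 CPM at 48 h. Every 48 h library exceeded every control and 24 h library, whereas control and 24 h overlapped. The log2 fold change at 48 h was 0.91 (SE 0.106, 95% interval 0.689 to 1.135, edgeR quasi-likelihood adjusted p = 1.234e-06), that is 1.88-fold. From 24 h to 48 h it was 1.29 (SE 0.108, adjusted p = 1.733e-08). At 24 h against control it was -0.38 (SE 0.116, interval -0.622 to -0.132) and was not called (adjusted p = 0.0648). Whether this lower 24 h level was called depended on the setting. Leaving out control replicate 3 gave -0.48 (adjusted p = 0.0051), leaving out control replicate 2 gave -0.21 (0.283), and over all libraries left out in turn the adjusted p ran from 0.0051 to 0.287. The value was called with library totals only (adjusted p = 0.0497), with no filter (0.00285), with DESeq2 (0.0369) and with the replicate number as a block (0.0393).

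Igfbp5 (chr1:72897091-72914043, minus strand), the matrix-bound binding protein of bone, rose less. It was at 168.7, 156.9 and 185.8 CPM in control, 197.3, 175.4 and 183.6 CPM at 24 h, and 226.5, 218.4 and 233.0 CPM at 48 h. The 48 h libraries lay above all others and the other groups overlapped. The log2 fold change was 0.41 (SE 0.062, 95% interval 0.277 to 0.536, edgeR quasi-likelihood adjusted p = 2.756e-05) at 48 h and 0.285 (SE 0.061, adjusted p = 0.000785) from 24 h to 48 h. At 24 h it was 0.12 (SE 0.062, interval -0.01 to 0.251, adjusted p = 0.3106). The 24 h value was 0.19 (adjusted p = 0.039) without control replicate 3, but 0.069 (0.629) without control replicate 2 and 0.077 (0.681) without 24 h replicate 1.

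Igfbp6 (chr15:102052797-102057946, plus strand), a binding protein with preference for IGF2, dipped at 24 h. It was at 315.1, 361.4 and 300.8 CPM in control, 255.9, 263.1 and 257.4 CPM at 24 h, and 370.9, 362.9 and 345.8 CPM at 48 h. All 24 h libraries lay below the other libraries, and the control range reached into the 48 h range through control replicate 2. The log2 fold change was -0.33 (SE 0.058, edgeR quasi-likelihood adjusted p = 0.00116) at 24 h and 0.48 (SE 0.058, adjusted p = 2.02e-06) from 24 h to 48 h. At 48 h against control it was 0.14 (SE 0.058, 95% interval 0.022 to 0.266, adjusted p = 0.0496). That call was lost when only the control and 48 h libraries were fitted (adjusted p = 0.0744). It was also lost without control replicate 1, control replicate 3, 24 h replicate 1, 48 h replicate 1 or 48 h replicate 2 (adjusted p = 0.124, 0.129, 0.0677, 0.166 and 0.126), and the value was 0.235 (adjusted p = 0.000307) without control replicate 2.

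Igfbp7 (chr5:77497087-77555888, minus strand), which binds IGF weakly and insulin, moved the opposite way to Igfbp6. It was at 41.56, 40.07 and 29.79 CPM in control, 55.60, 53.51 and 56.16 CPM at 24 h, and 31.59, 35.66 and 35.98 CPM at 48 h. The 24 h libraries lay above all others, and control and 48 h overlapped. The log2 fold change was 0.57 (SE 0.094, 95% interval 0.367 to 0.764, edgeR quasi-likelihood adjusted p = 0.000667) at 24 h, -0.68 (SE 0.093, adjusted p = 7.631e-06) from 24 h to 48 h, and -0.11 (SE 0.097, interval -0.316 to 0.09, adjusted p = 0.3626) at 48 h against control. The last value rested on single libraries: it was -0.23 (adjusted p = 0.0157) without control replicate 3, -0.006 (0.968) without control replicate 1, -0.05 (0.726) without control replicate 2 and -0.055 (0.711) without 48 h replicate 1. Igfbp7 overlaps Polr2b, a gene on the opposite strand, over 85 bases of the deposited coordinates. In the GENCODE annotation of this build, Polr2b shares 747 of the 5449 exon bases of Igfbp7. Polr2b was at 129.1, 137.3 and 110.3 CPM in control, 24 h and 48 h, and on the log2 scale its difference from control was 0.09 at 24 h (edgeR adjusted p = 0.4066), against -0.23 at 48 h (adjusted p = 0.00189). The strand setting of the counting is not given in the sources used here, and the part of Polr2b reads in the Igfbp7 values was not tested.

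**Figure D2:**
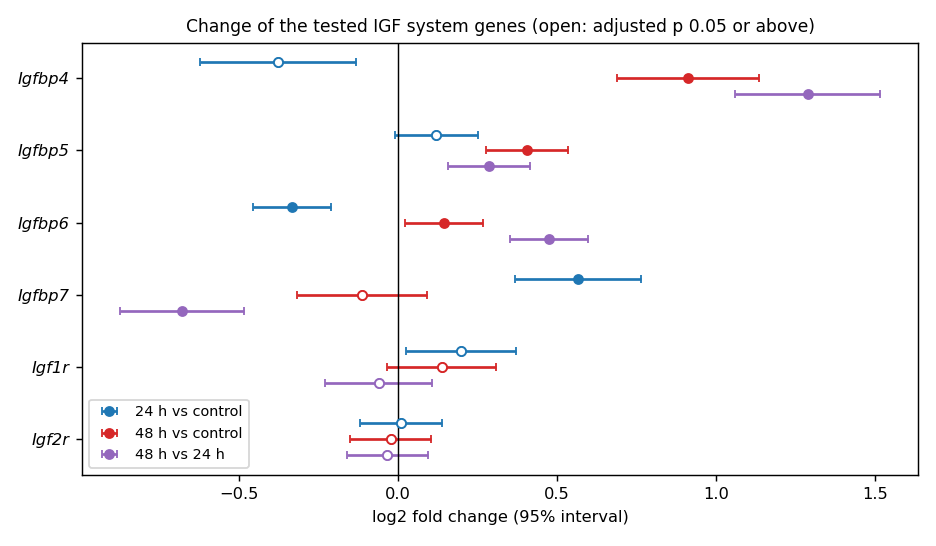
Log2 fold changes with 95% intervals for the 6 tested genes, at 24 h versus control, 48 h versus control and 48 h versus 24 h; filled points passed the adjusted p threshold of 0.05. The Igfbp4 value at 48 h versus 24 h is 1.29 and that of Igfbp7 is -0.68, while all 3 values of Igf2r lie within 0.034 of 0.

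The levels of different genes were compared per length, as FPKM. In control the order was Igfbp6 (293 FPKM), Igfbp7 (30.7), Igfbp5 (28.4), Igf2r (25.7), Igfbp4 (6.02) and Igf1r (3.98). The ranges of Igfbp7, Igfbp5 and Igf2r overlapped with their neighbours in this order, and the other neighbours were separate. At 24 h Igfbp7 (45.6 FPKM) stood above Igfbp5 (30.9) in every library, and Igfbp4 (4.62) and Igf1r (4.56) overlapped. At 48 h Igfbp5 (37.6 FPKM) stood above Igfbp7 (28.5) in every library and Igfbp4 reached 11.3 FPKM, clear of Igf1r at 4.37. By this measure the order of Igfbp5 and Igfbp7 thus differed between 24 h and 48 h. It rests on the deposited length of Igfbp7, 1209 bases, where the GENCODE annotation of this build holds 5449 exon bases. The order at that length was not computed. In CPM, Igfbp5 (156.9 to 233) was above Igfbp7 (29.79 to 56.16) in every library.

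Summed over the binding proteins, the RNA was 358 ± 30.8 FPKM in control, 314 ± 0.854 at 24 h and 401 ± 9.62 at 48 h (SD, n = 3). The sum and its shares are given as a description, with no test. They rest on the deposited gene lengths, and the shares depend on the length used for Igfbp7. Igfbp6 made up 81.8%, 74.2% and 80.7% of this sum. Igfbp7 made up 8.56%, 14.5% and 7.11%, and Igfbp5 made up 8.002%, 9.84% and 9.39%. The share of Igfbp4 was the smallest of the 4 at 1.67%, 1.47% and 2.81%. Summed receptor RNA stayed between 29.7 and 30.5 FPKM in the group means.

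**Figure D3:**
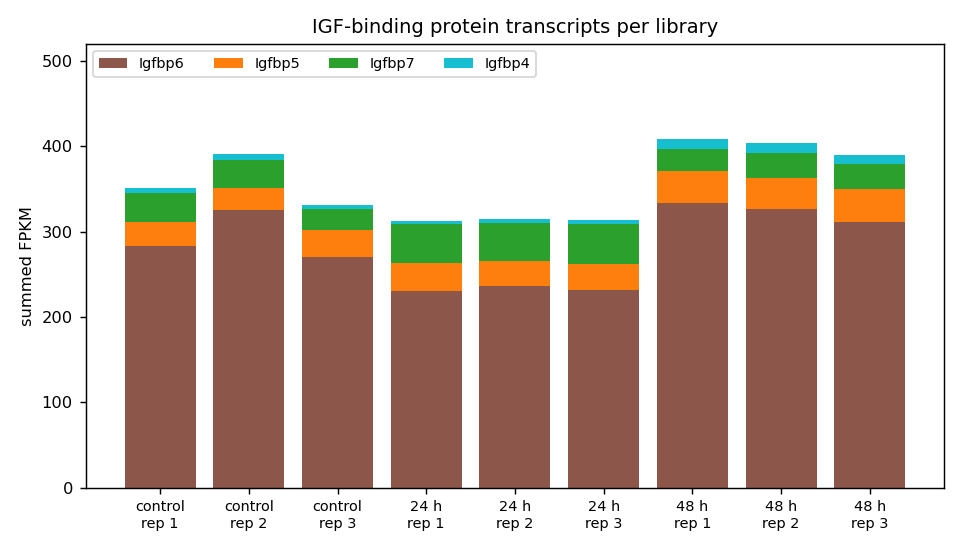
Summed FPKM of Igfbp6, Igfbp5, Igfbp7 and Igfbp4 in each of the 9 libraries as stacked bars that start at 0. Igfbp6 is the largest segment in every library, the Igfbp7 segment is widest in the 24 h libraries (14.5% of the sum on average), and the Igfbp4 segment is widest at 48 h (2.81%).

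The genes whose pattern over the 9 libraries was most like that of each called binding protein were taken from 10079 protein-coding genes, by Pearson correlation of log2 CPM. These correlations are descriptions, and their points share libraries and groups. For Igfbp4 they were Pskh1 (r = 0.992) and Tmem50a (0.988), and for Igfbp5 they were Neurl1a (0.990) and Setbp1 (0.987). For Igfbp6 they were Vat1 (0.984) and Gpt (0.981). For Igfbp7 they were Ostc (0.982), a subunit of the oligosaccharyltransferase complex, and Tmed2 (0.965), a cargo receptor between endoplasmic reticulum and Golgi.

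Besides the members, 71 genes of the IGF pathway were listed by role, and 58 of them were tested. At 48 h against control 22 were higher (37.9%, beside 22% of all genes tested) and 10 were lower (17.2%, beside 24.4%). At 24 h 3 were higher and 3 were lower (5.17% each, beside 3.25% and 2.9%), and from 24 h to 48 h 22 were higher (37.9%, beside 23.7%) and 11 were lower (19%, beside 25.4%). The median log2 fold change of the 58 genes was 0.07 at 48 h and 0.01 at 24 h. The 13 untested genes had at most 15 counts in any library, and 4 of them (Igfbp1, Igfbpl1, Irs4 and Grb10) had none.

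Genes that process IGF or bind its carriers were higher at 48 h in 5 of 7 tested cases against control, beside 22% of all genes, and in 7 of 7 against 24 h, beside 23.7%. These counts by role, here and for the roles that follow, are descriptions of small groups with no test of the group. Stc1, which encodes stanniocalcin 1, an inhibitor of the PAPP-A proteases, rose from 7.43 ± 1.69 CPM in control and 9.88 ± 1.04 CPM at 24 h to 32.8 ± 1.33 CPM at 48 h. Its log2 fold change at 48 h was 2.14 (SE 0.121, edgeR quasi-likelihood adjusted p = 1.074e-10). Pappa, which encodes PAPP-A, had 8 reads over all libraries. Pappa2, also in this list, averaged 1.40, 1.08 and 2.15 CPM in control, 24 h and 48 h. It was called higher from 24 h to 48 h (0.993, edgeR quasi-likelihood adjusted p = 0.0127) but not at 48 h against control (0.653, adjusted p = 0.0871). Pappa2 was named after its values were seen. Htra1, a secreted protease that cleaves binding proteins, was at 420 ± 26 CPM in control, 381 ± 8.68 at 24 h and 562 ± 12 at 48 h, and rose by 0.56 on the log2 scale from 24 h (adjusted p = 2.203e-08). Ctsd, which encodes cathepsin D, fell by 0.32 at 24 h (adjusted p = 0.000817). Furin, which processes the precursors of IGF and its receptor, was higher at 48 h (0.41, adjusted p = 8.863e-06), as was Insr, the insulin receptor (0.46, adjusted p = 0.000234), and both were named after their values were seen.

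Downstream of the receptors, receptor adaptors were higher in 5 and lower in 1 of 9 tested genes at 48 h (55.6% and 11.1%, beside 22% and 24.4% of all genes). Irs1, a main docking protein of IGF1R, rose from 21.8 ± 4.97 to 39.2 ± 7.44 CPM (log2 fold change 0.84, SE 0.135, edgeR quasi-likelihood adjusted p = 5.196e-05), and Irs2 rose from 8.76 ± 0.896 to 13.8 ± 0.821 CPM (0.66, SE 0.111, adjusted p = 8.413e-05). At 24 h neither was called (adjusted p = 0.8575 and 0.6694). In the PI3 kinase and AKT group 4 were higher and 2 lower of 15 (26.7% and 13.3%, beside 22% and 24.4% of all genes). The regulatory subunit Pik3r1 was higher (0.57, adjusted p = 7.103e-06), and the kinase Akt1 and the subunit Pik3r3 were lower (-0.37, adjusted p = 6.114e-06, and -0.27, adjusted p = 0.00396).

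In the RAS and ERK group 1 gene was higher and 3 were lower of 9 at 48 h (11.1% and 33.3%, beside 22% and 24.4% of all genes). Hras fell by 0.47 (edgeR quasi-likelihood adjusted p = 0.000142) and Map2k2, a kinase of ERK, by 0.30 (adjusted p = 0.000294). The group labelled mTORC1 had 3 higher and 3 lower of 12 (25% each), near the shares of all genes. It includes Rictor, a subunit of mTORC2, which was among the higher genes and was named after its value was seen. All 3 tested FOXO genes, transcription factors that AKT restrains, were called at 48 h, with 2 higher and 1 lower, where 46.4% of all genes were called in either direction. At 24 h the called genes of all roles were Map2k1 (0.25, adjusted p = 0.00743), Inppl1 (0.22, adjusted p = 0.0324) and Foxo3 (0.21, adjusted p = 0.0349) as higher, and Ctsd, Pik3r2 (-0.22, adjusted p = 0.0372) and Mapk3 (-0.20, adjusted p = 0.0273) as lower. These 24 h counts depended on single libraries, with 10 genes higher and 6 lower without control replicate 3, and none higher without 24 h replicate 3.

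**Figure D4:**
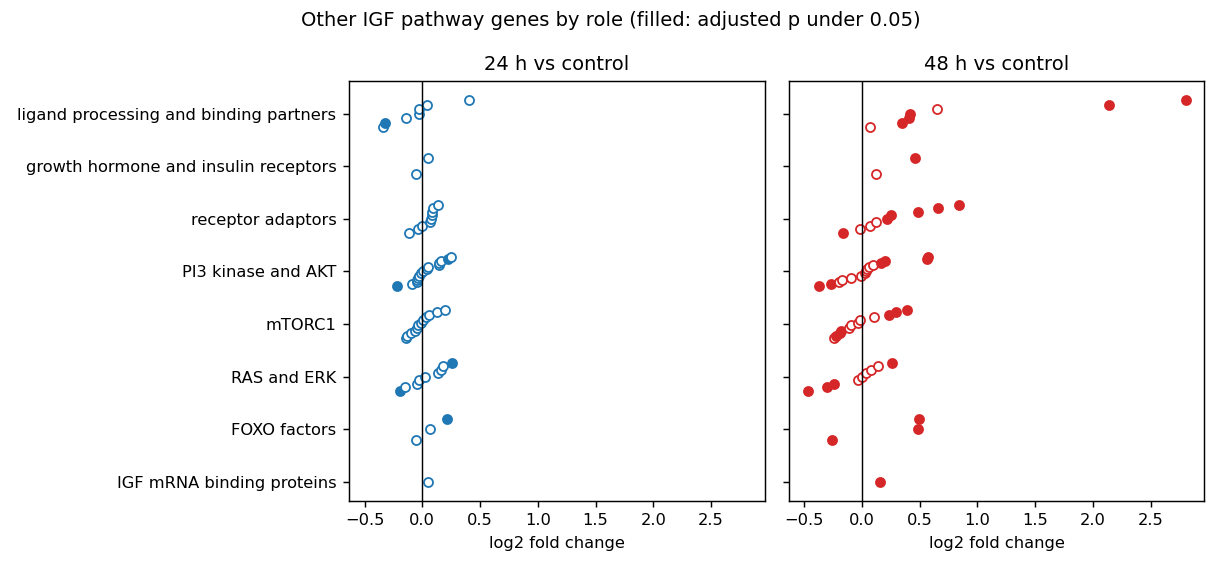
Log2 fold change against control of the 58 tested IGF pathway genes by role, at 24 h (left) and 48 h (right); each point is a gene, and filled points passed the adjusted p threshold of 0.05. At 48 h 22 genes are higher and 10 lower, with Stc1 at 2.14 and Htra3 at 2.80 farthest to the right (Htra3 was named after its value was seen), and at 24 h 3 are higher and 3 lower.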

How the data were processed

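RNA of 9 MLO-Y4 libraries in 3 groups (control, 24 h and 48 h) was measured by directional paired-end RNA sequencing, and each sample was grouped and numbered as its title says. A single table of raw counts was deposited by the authors, made with HISAT2 on GRCm39 and featureCounts (version 2.06 in the submitters' processing notes; other sources give other versions, and the methods also name RSEM). Strand setting and treatment of reads with several matches are not given in the sources used here. Counts of overlapping genes are therefore uncertain.

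Counts were analysed with edgeR 4.0.16, limma 3.58.1 and R 4.3.3. The filterByExpr function (minimum count 10) left 13812 genes with 99.9% of reads. All libraries entered 1 quasi-likelihood fit with TMM scaling and no term besides group (6 residual degrees of freedom). P-values were adjusted by Benjamini-Hochberg over all genes tested, and an adjusted p under 0.05 was called. CPM use TMM-scaled totals, and FPKM are CPM per kilobase of the deposited gene length. Alternatives were RLE scaling, library totals, no filter, DESeq2 1.42.0, the replicate number as a block, only the groups compared, and each library left out. The procedure was tested on simulated data.

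The members and the lists of pathway and marker genes were chosen with earlier results of these data known. Named were all members, at most 4 pathway genes per comparison and direction with the largest change among those called, at 5 CPM or more and without overlap of libraries, and the 2 genes most correlated with each called member (prior count 2). No 2 libraries of a group agreed within sampling noise (chi-square per degree of freedom of 2.32 to 8.45). The spread was widest in control, with pairs at 5.10, 5.19 and 8.45, against 2.32 to 3.73 for the pairs of the 24 h and 48 h groups. Intervals are 95% intervals.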

Additional observations from a re-analysis of the deposited data

Results flagged for a closer look

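The changes from control at 24 h and at 48 h differed for the 4 called members, tested by the 48 h versus 24 h contrast of the edgeR quasi-likelihood fit. This difference is between the 24 h and 48 h libraries, and the values repeat those given above for each gene. The control libraries enter its adjusted p through the scaling and the estimate of the spread that all 9 libraries share. The 4 members were chosen by the joint test of the same libraries, so the contrast is no separate test. The difference, 48 h minus 24 h in log2 fold change, was 1.29 for Igfbp4 (adjusted p = 1.733e-08), 0.285 for Igfbp5 (adjusted p = 0.000785), 0.48 for Igfbp6 (adjusted p = 2.02e-06) and -0.68 for Igfbp7 (adjusted p = 7.631e-06). The changes themselves were -0.38 and 0.91 for Igfbp4, 0.12 and 0.41 for Igfbp5, -0.33 and 0.14 for Igfbp6, and 0.57 and -0.11 for Igfbp7, at 24 h and 48 h.

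Of the named pathway genes, the difference was 1.73 for Stc1, 0.77 for both Irs1 (0.772) and Irs2 (0.774), 0.317 for Pik3r1, 0.56 for Htra1, 0.284 for Foxo3, 0.387 for Ctsd, 0.315 for Pik3r2 and 0.461 for Mapk3. It was -0.428 for Hras, -0.323 for Akt1, -0.153 for Map2k2, -0.259 for Pik3r3 and -0.256 for Map2k1. The adjusted p-values of these differences ran from 7.778e-10 (Stc1) to 0.0359 (Map2k2). These genes were named for their changes in the same comparisons, so the differences are given as values. Groups of 3 libraries are too small for a check of outlying samples.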

How the results depend on the processing

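Over the alternatives, 248 of 270 values of members kept their direction and side of the threshold, as did 387 of 420 values of named pathway genes, and 33 of the latter fell short of it. Igf2r lay near 0 and changed sign: at 24 h it was -0.008 with library totals only and -0.035 to 0.099 with single libraries left out, at 48 h -0.061 to 0.073, and from 24 h to 48 h it was 0.005 with library totals. Members called higher at 24 h (1) numbered 2 with no filter and 1 to 3 with single libraries left out. Members called lower at 24 h (1) numbered 2 with library totals, no filter, DESeq2 or the replicate number as a block, and 1 to 2 with single libraries left out, and those called lower at 48 h (0) numbered 0 to 1, with the 1 being Igfbp7 without control replicate 3. Pathway genes called higher at 24 h (3) numbered 6 with no filter, 5 with the replicate block, 1 with only the groups compared and 0 to 10 with single libraries left out. Those called lower at 24 h (3) numbered 1 with only the groups compared and 1 to 6 with single libraries left out, and those lower from 24 h to 48 h (11) numbered 7 to 12. The cause was not tested.

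Over all genes, 449 higher and 400 lower at 24 h became 759 and 436 with no filter, 336 and 254 with only the groups compared, and 873 and 602 without control replicate 3. Scaling moved the median of all genes by at most 0.039. Without division by gene length, the binding-protein shares in control, 24 h and 48 h were 4.72%, 3.93% and 7.43% for Igfbp4, 30.6%, 35.7% and 33.7% for Igfbp5, 58.1%, 49.8% and 53.7% for Igfbp6, and 6.62%, 10.6% and 5.14% for Igfbp7. The deviations of same-numbered libraries correlated at -0.049 to 0.077, and those of unlike-numbered libraries at -0.097 to 0.095. No pairing by number was seen, although correlations over all genes tested could miss a pairing that affects few genes. The block changed 1 member call against control (Igfbp4 at 24 h) and raised the members called in the joint test from 4 to 5. Depth limits Igf1, Igfbp2 and Igfbp3. The 0 of Igf2 may reflect the counting as well, since most of its exon bases are shared with Gm49394, and this was not tested.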
